A study of Mus musculus with 22 samples.

Results

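The *Slc2a* genes encode the facilitative hexose transporters (GLUT proteins). Members were chosen by name: the rows of the testes RNA-seq count table for *Slc2a1*, *Slc2a3*, *Slc2a4*, *Slc2a5*, *Slc2a8*, *Slc2a9*, *Slc2a10*, *Slc2a12* and *Slc2a13*, which are 9 of 17931 gene symbols. The libraries were made from whole testes of WT males and of males with a constitutive deletion of *Mlx* (MLX KO), both aged 7 months, with 3 biological replicates of each genotype and no treatment. The study describes age-matched littermates and WT males that were proven breeders. Its KO allele lacks exons 3 to 6, was made in 129S4 embryonic stem cells and was carried by every cell of the animal. The RNA-seq libraries are 6 of the 22 samples of the series, and the ChIP-Seq samples were not analysed here.

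GLUT proteins let sugars cross membranes down their concentration gradient, and members differ in substrate, affinity and cell type. In the testis, Sertoli cells take up glucose and pass lactate to meiotic and postmeiotic germ cells, and sperm can use glucose and fructose directly. MLX is the partner of the glucose-sensing transcription factors MondoA and ChREBP, which bind E-boxes and raise *Txnip*, whose product restrains glucose uptake. The comparison of MLX KO with WT testes therefore asks how the transcripts of the transporters themselves differ when this branch of the MYC network is lost.

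The stretches directly upstream of *Slc2a5* and *Slc2a8*, which were lower in MLX KO testes, and of *Slc2a12*, which was higher, are shown because they let the reader compare promoters of members that moved in opposite directions. They are RefSeq sequence of GRCm38.p6 (mm10), 5′ to 3′ on the strand of the gene, end at the last base before the annotated gene, and have in capitals every GC box (GGGCGG) and CCAAT box (CCAAT) on either strand.
Slc2a5, chr4:150119144-150119282, plus strand: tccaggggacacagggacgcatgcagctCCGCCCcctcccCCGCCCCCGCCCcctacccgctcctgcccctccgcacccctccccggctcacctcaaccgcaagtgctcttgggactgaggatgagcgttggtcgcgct
Slc2a8, chr2:32982084-32982283, minus strand: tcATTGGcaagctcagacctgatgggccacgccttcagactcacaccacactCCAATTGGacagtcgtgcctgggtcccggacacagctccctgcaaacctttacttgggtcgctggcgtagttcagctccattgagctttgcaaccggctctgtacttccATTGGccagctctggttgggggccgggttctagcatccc
Slc2a12, chr10:22644811-22645010, plus strand: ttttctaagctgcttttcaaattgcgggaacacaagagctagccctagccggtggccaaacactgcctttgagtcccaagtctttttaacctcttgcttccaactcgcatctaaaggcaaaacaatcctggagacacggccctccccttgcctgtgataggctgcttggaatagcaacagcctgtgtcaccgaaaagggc
The *Slc2a5* stretch held 3 GC boxes and 71.9% G and C, the *Slc2a8* stretch held 4 CCAAT matches, of which a neighbouring pair overlaps, and the *Slc2a12* stretch held neither motif, at 50.5% G and C. Both motifs are common: of 32851 promoter windows from 250 bases before to 50 bases after a start, 35.7% held a GC box and 37.4% a CCAAT box. The E-box CACGTG was searched in the windows of the 7 members that have one in the table used (all but *Slc2a3* and *Slc2a4*), and 0 of 7 held it, against 7.15% of all windows. None of the 7 held the carbohydrate response element (0.119% of all windows) or the cyclic AMP element TGACGTCA (1.79%), which is the site of CREM. No match says only that these letters are absent from these windows.

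The 6 libraries held between 16674678 and 19742726 counts. *Mlx* counts were 128, 96 and 98 in the WT libraries against 94, 109 and 102 in the MLX KO libraries. These overlapping values are 1 number for the gene symbol, and which exons it covers is not given in the sources used here, so they do not check the genotype labels. *Txnip*, the target named above, stood at 51.0, 76.6 and 78.0 CPM in the WT libraries against 31.6, 28.1 and 28.9 CPM in the MLX KO libraries, without overlap. The tissue label was checked with marker lists. Germ cell, Sertoli and Leydig markers were abundant in all 6 libraries, while the 4 epididymal markers in the table summed to at most 0.277 CPM (counts scaled by TMM-adjusted library size). On the 2nd principal component the KO1 library stood at 11.9 and the other MLX KO libraries below 0, so values without KO1 are given where they change a call.

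Of the 9 transporter genes, 3 were lower and 1 was higher in MLX KO testes past an adjusted p of 0.05 in edgeR's quasi-likelihood test, 4 were tested without passing, and *Slc2a10* had too few counts for testing. Over all 14640 genes tested, 45.4% passed, 20.6% lower and 24.8% higher, so the share of 4 in 8 tested members was near the background. The lower members were *Slc2a3*, *Slc2a5* and *Slc2a8*, the members with the most counts, and they changed by nearly the same amount. The higher member was *Slc2a12*. The CPM values of WT and MLX KO libraries did not overlap for 7 of the 8 tested members, against 56.2% of all genes tested. These 7 include *Slc2a4*, where WT1 stood at 1.476 and KO3 at 1.482 CPM, and *Slc2a13*, on 9 to 21 counts, and neither passed. In whole testes, fewer cells of a type and less RNA per cell cannot be told apart.

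**Figure D1:**
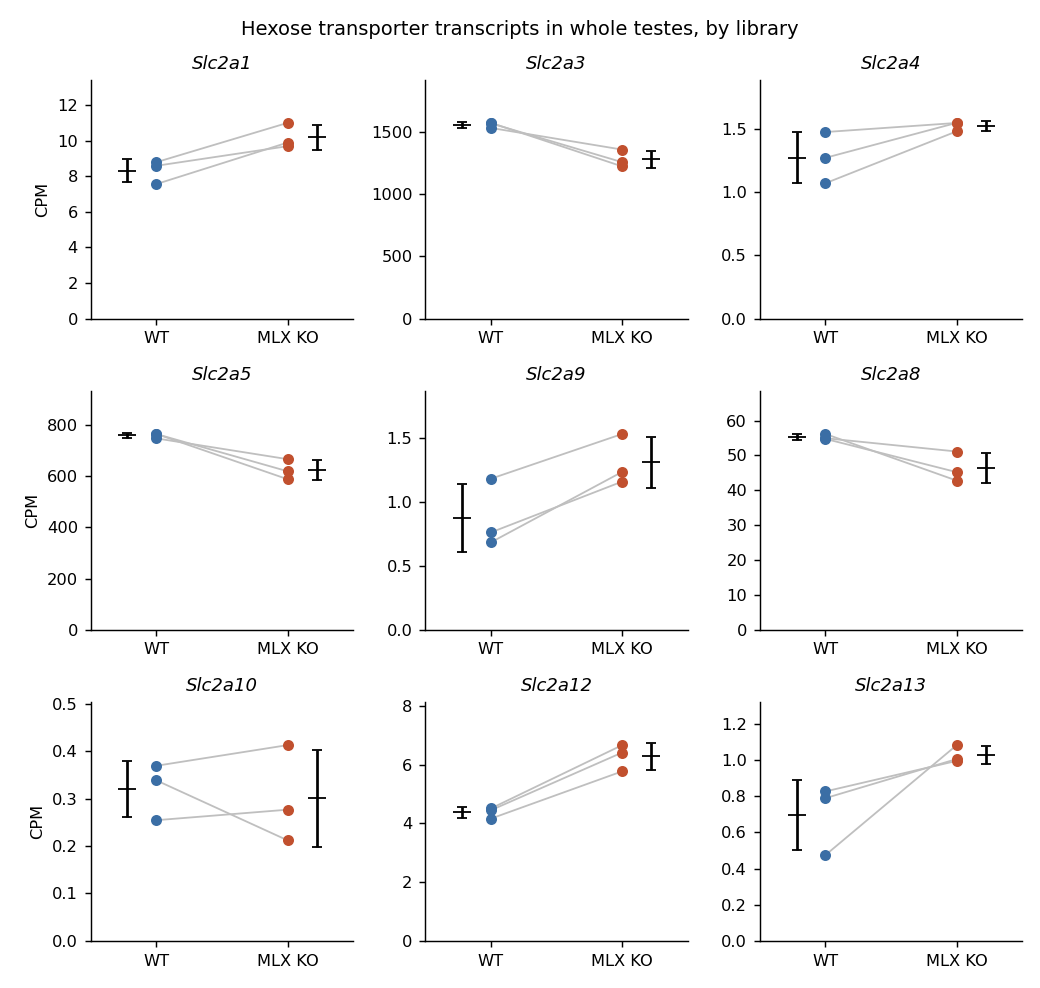
CPM (vertical axes, linear, each from 0) of the 9 transporter genes in WT (blue) and MLX KO (orange) libraries. Grey lines join littermates, and black marks show the mean and SD of 3 libraries. *Slc2a3*, *Slc2a5* and *Slc2a8* lie lower in all 3 MLX KO libraries, and *Slc2a12* and *Slc2a1* higher.

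*Slc2a3* encodes GLUT3, a high-affinity glucose transporter known from neurons and germ cells. It lies on chromosome 6 of mm10 from 122727809 to 122801640 on the minus strand. It had 1530, 1571 and 1567 CPM in WT1, WT2 and WT3 and 1356, 1221 and 1255 CPM in KO1, KO2 and KO3, on 22069 to 29011 counts per library. All 3 MLX KO values lay below the lowest WT value, and the highest of them was that of KO1. The mean fell from 1556 ± 22.9 to 1277 ± 70.5 CPM (SD, n = 3 each), or by a log2 fold change (LFC) that equalled -0.28 (SE 0.05, edgeR adjusted p = 0.00153, with all 3 pairs lower).

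*Slc2a5* encodes GLUT5, the fructose transporter, which is also found on mature sperm. It lies on chromosome 4 from 150119283 to 150144169 on the plus strand. It had 747, 764 and 764 CPM in the WT and 666, 618 and 587 CPM in the MLX KO libraries, on 11094 to 14167 counts. The genotypes again did not overlap, and the WT libraries were closer to each other than the MLX KO libraries were. The mean fell from 758 ± 9.87 to 624 ± 39.5 CPM (SD, n = 3 each), with LFC = -0.28 (SE 0.05, edgeR adjusted p = 0.00172, with all 3 pairs lower).

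*Slc2a8* encodes GLUT8, which sits mostly on internal membranes and is known from spermatids and sperm. It lies on chromosome 2 from 32972990 to 32982083 on the minus strand. It had 54.9, 54.8 and 56.2 CPM in WT and 51.1, 45.2 and 42.8 CPM in MLX KO testes, which gives LFC = -0.25 (SE 0.07, edgeR adjusted p = 0.0105, with all 3 pairs lower). The groups did not overlap, with KO1 nearest to WT. The *Slc2a8* call was lost without KO3 (LFC -0.19, edgeR adjusted p = 0.0522) and with scaling by library size alone (LFC -0.12, edgeR adjusted p = 0.15), a scaling that moved the median LFC of all genes up by 0.14 and called 36.5% of them higher and 8.66% lower.

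The ratios among these 3 genes overlapped between genotypes. On reads per kilobase of exon within a library, *Slc2a3* stood at 0.962, 0.966 and 0.963 of *Slc2a5* in WT and at 0.957, 0.927 and 1.00 in MLX KO testes, a log2 difference of -0.0023 between genotypes (exact permutation test, two-sided p = 1.0). For *Slc2a3* over *Slc2a8* the log2 difference was -0.03 (exact permutation test, two-sided p = 0.6), from ratios of 12.3 to 12.7 in WT and 11.8 to 13.0 in MLX KO libraries. Such ratios do not depend on how libraries are scaled. With 3 libraries a genotype the smallest p that this test can give is 0.1, and a p above it does not show that the ratios are equal. All permutation tests given here shuffled single libraries and did not use the littermate pairs.

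*Slc2a12* encodes GLUT12, a glucose transporter related to GLUT10. It lies on chromosome 10 from 22645011 to 22704285 on the plus strand. Its counts were 79, 70 and 80 in WT against 112, 116 and 126 in MLX KO libraries, or 4.17, 4.45 and 4.51 against 5.78, 6.42 and 6.67 CPM. Each MLX KO value lay above each WT value. The mean rose from 4.38 ± 0.185 to 6.29 ± 0.460 CPM (SD, n = 3 each), a 1.44-fold difference (LFC 0.52, SE 0.13, edgeR adjusted p = 0.00778, with all 3 pairs higher). With the littermate pair as a block, which called 46.1% of all genes tested in edgeR and 30.2% in DESeq2, the adjusted p of *Slc2a12* was 0.00878 in edgeR and 0.15 in DESeq2, where the LFC was 0.49.

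*Slc2a12* overlaps *Tbpl1*, which encodes a TBP-like factor required for spermatid development, and 407 exonic bases belong to both genes on opposite strands. Of the 50-base words of *Slc2a12* transcripts, 8.55% also occur in *Tbpl1* transcripts. Whether the counting used strand is not given in the sources used here, so reads from the shared bases cannot be assigned to either gene with certainty. *Tbpl1* was far more abundant, with 305, 320 and 297 CPM in WT and 265, 246 and 248 CPM in MLX KO testes, and it fell (LFC -0.28, SE 0.05, edgeR adjusted p = 0.0012, with all 3 pairs lower). The neighbour thus moved in the opposite direction from *Slc2a12*, and *Slc2a12* counts per 100 *Tbpl1* counts went from 1.36, 1.39 and 1.52 in WT to 2.18, 2.61 and 2.69 in MLX KO libraries.

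*Slc2a1* encodes GLUT1, the transporter of basal glucose uptake in many cells, including Sertoli and endothelial cells. It lies on chromosome 4 from 119108711 to 119137983 on the plus strand. It had 8.59, 7.57 and 8.80 CPM in WT and 9.70, 9.90 and 11.01 CPM in MLX KO libraries, on 119 to 208 counts. The groups did not overlap, although KO1 and WT3 differed by less than the range within WT. The LFC was 0.29 (SE 0.11, higher in 3 of 3 pairs) with an adjusted p of 0.0502 from edgeR, which does not pass. With the littermate pair as a block it was 0.0499 in edgeR, where 25.5% of all genes tested were called higher, and 0.36 in DESeq2, and without KO1 it was 0.0388 in edgeR.

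*Slc2a1* and *Slc2a3* are both class I glucose transporters, so their ratio within a library was compared. Per kilobase, *Slc2a3* was 85.9, 100 and 85.9 times *Slc2a1* in WT and 67.5, 59.5 and 55.0 times *Slc2a1* in MLX KO testes. The log2 ratio went from 6.50 ± 0.127 to 5.92 ± 0.149 (SD, n = 3 each), a difference of -0.58 without overlap (exact permutation test, two-sided p = 0.1, the smallest that 3 against 3 allows). Each gene alone had no overlap, in opposite directions, so the ratio had to separate as well. It joins the 2 differences given above and is not separate evidence for *Slc2a1*, which did not pass.

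The other members had few counts. *Slc2a4* encodes GLUT4, the insulin-responsive transporter of muscle and fat, and lies on chromosome 11, 31.1 Mb from *Mlx*. Its counts were 28, 20 and 19 in WT against 30, 28 and 28 in MLX KO libraries, an LFC of 0.26 with an interval of 2 SE on each side from -0.21 to 0.73 (edgeR adjusted p = 0.397). *Slc2a9*, on chromosome 5, encodes GLUT9, a urate transporter. Its counts were 13, 12 and 21 against 24, 21 and 29, an LFC of 0.58 with an interval from -0.01 to 1.16 (edgeR adjusted p = 0.129) and overlapping CPM values.

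*Slc2a13*, on chromosome 15, encodes HMIT, which carries myo-inositol together with protons. Its counts were 9, 13 and 14 in WT against 21, 18 and 19 in MLX KO testes, which gives LFC = 0.57 with an interval from -0.03 to 1.18 (edgeR adjusted p = 0.144). Neither *Slc2a4*, *Slc2a9* nor *Slc2a13* passed in any of 16 alternatives, and each was higher in 3 of 3 pairs. At this depth counting error alone gives *Slc2a13* a coefficient of variation of 28.9% in WT. *Slc2a10*, on chromosome 2, encodes GLUT10 and had counts of 7, 4 and 6 in WT against 8, 5 and 4 in MLX KO libraries, with overlapping groups and no test.

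**Figure D2:**
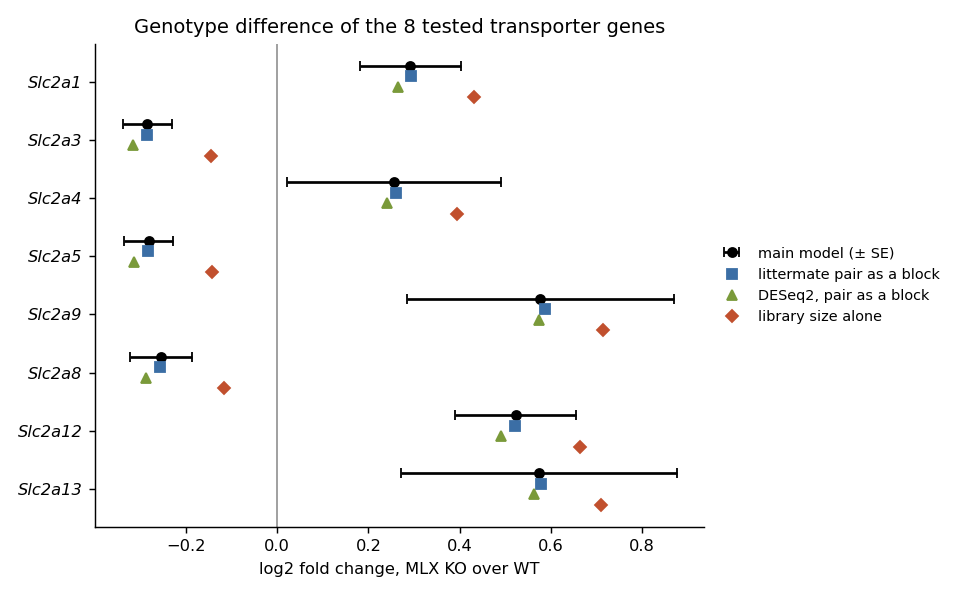
LFC of MLX KO over WT (horizontal axis) for the 8 tested members, with SE bars for the main model and symbols for 3 alternatives. *Slc2a3*, *Slc2a5* and *Slc2a8* lie left of 0 and the other 5 members right of it under all 4 settings, with library size alone shifting every gene to the right.

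Levels of different genes were compared per length, as CPM per kilobase of annotated exon. In WT testes the order was *Slc2a5* with 223 ± 2.90, *Slc2a3* with 215 ± 3.12 and *Slc2a8* with 17.2 ± 0.238 CPM per kilobase (SD, n = 3 each). The next were *Slc2a1* with 2.37 ± 0.188 and *Slc2a12* with 1.03 ± 0.0436, and the remaining 4 members were at or below 0.366 ± 0.0582 CPM per kilobase. *Slc2a5* and *Slc2a3* were separated in WT but overlapped in MLX KO libraries, and *Slc2a10* and *Slc2a13* overlapped in both genotypes. All other neighbours in this order were separated in both. The order of *Slc2a5* and *Slc2a3* rests on the length used: with the longest transcript in place of all exons, *Slc2a3* came before *Slc2a5*.

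*Slc2a3* and *Slc2a5* together made up 95.3%, 95.5% and 95.3% of the family's per-length signal in WT and 94.8%, 94.8% and 94.8% in MLX KO libraries. The summed signal of the 9 members went from 459 ± 6.08 to 379 ± 21.3 CPM per kilobase (SD, n = 3 each; exact permutation test, two-sided p = 0.1). Without *Slc2a3* and *Slc2a5*, the sum over the other 7 members was 21.3 ± 0.429 in WT and 19.8 ± 1.09 CPM per kilobase in MLX KO libraries (SD, n = 3 each; exact permutation test, two-sided p = 0.2). Without *Slc2a8* as well, the sum over the 6 members under 20 CPM was higher in MLX KO libraries. It went from 4.12 ± 0.207 to 5.30 ± 0.290 CPM per kilobase (SD, n = 3 each, exact permutation test, two-sided p = 0.1). The 3 genes left out are the members called lower above, so this direction restates the member values. *Slc2a1*, which did not pass, and *Slc2a12* held most of this sum, with 2.37 and 1.03 CPM per kilobase in WT. Within the family, the share of *Slc2a12* was 0.225% in WT and 0.393% in MLX KO testes, and that of *Slc2a1* was 0.517% and 0.770%.

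**Figure D3:**
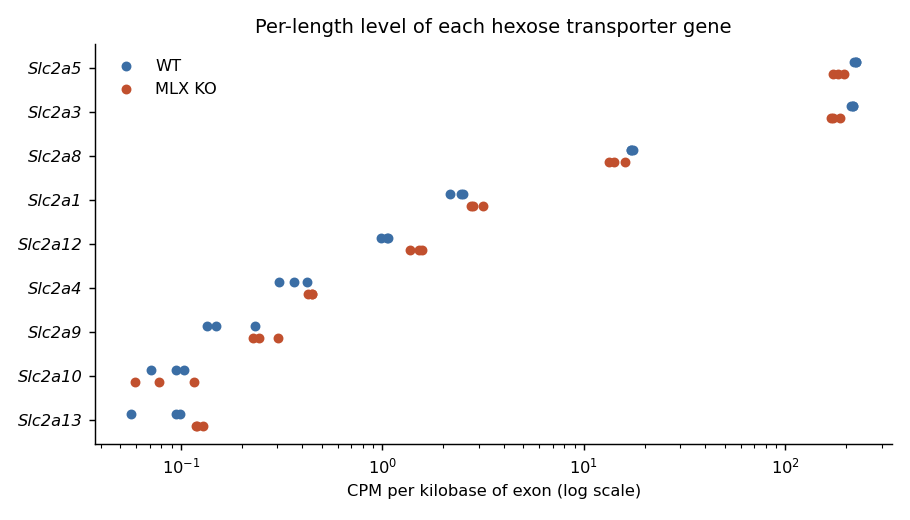
Per-length level of each member in CPM per kilobase of exon (horizontal axis, log scale), with 3 WT libraries in blue and 3 MLX KO libraries in orange. *Slc2a5* and *Slc2a3* lie more than 10 times above *Slc2a8* in WT, and *Slc2a10* and *Slc2a13* lie lowest.

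Markers of several testis cell types moved with these genes. All 6 round spermatid markers were lower and past the threshold, with LFCs from -0.29 to -0.14, and all 8 elongating spermatid markers fell more, with LFCs from -0.82 to -0.42. Of 7 spermatocyte markers, 5 fell and the other 2 did not pass, with LFCs from -0.28 to -0.13 over the list. With library size alone, 3 round spermatid markers and 1 spermatocyte marker were past the threshold and lower, and with the littermate pair as a block in edgeR 5 and 6 were. In a comparison chosen after these values were seen, member counts were divided by the summed marker counts of the same library. Per 100 round spermatid marker counts, *Slc2a3* stood at 101, 103 and 104 counts in the WT libraries against 103, 97.9 and 101 in the MLX KO libraries, a log2 change of -0.03 with overlapping groups (exact permutation test, two-sided p = 0.2). *Slc2a5* (log2 change -0.03, exact permutation test, two-sided p = 0.5) and *Slc2a8* (log2 change -0.0038, exact permutation test, two-sided p = 0.9) overlapped as well.

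Per elongating spermatid marker count, the same genes were higher in MLX KO testes without overlap, by 0.37 for *Slc2a3*, 0.37 for *Slc2a5* and 0.40 for *Slc2a8* on the log2 scale (exact permutation tests, two-sided p = 0.1 each, the smallest possible). Per spermatocyte marker count the log2 changes were -0.10, -0.10 and -0.08, with overlap for *Slc2a8* (exact permutation tests, two-sided p = 0.1, 0.1 and 0.4). The separation was narrow for *Slc2a3* and *Slc2a5*. Per 100 marker counts, WT1 and KO1 stood at 96.2 and 95.6 for *Slc2a3* and at 47.0 and 46.9 for *Slc2a5*. The fall of the 3 abundant transporters thus measured close to that of the summed round spermatid markers and smaller than that of the elongating spermatid markers. It was slightly larger than that of the summed spermatocyte markers for *Slc2a3* and *Slc2a5*, while *Slc2a8* overlapped. LFCs of single round spermatid and spermatocyte markers covered nearly the same range, so these ratios do not separate the stages.

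**Figure D4:**
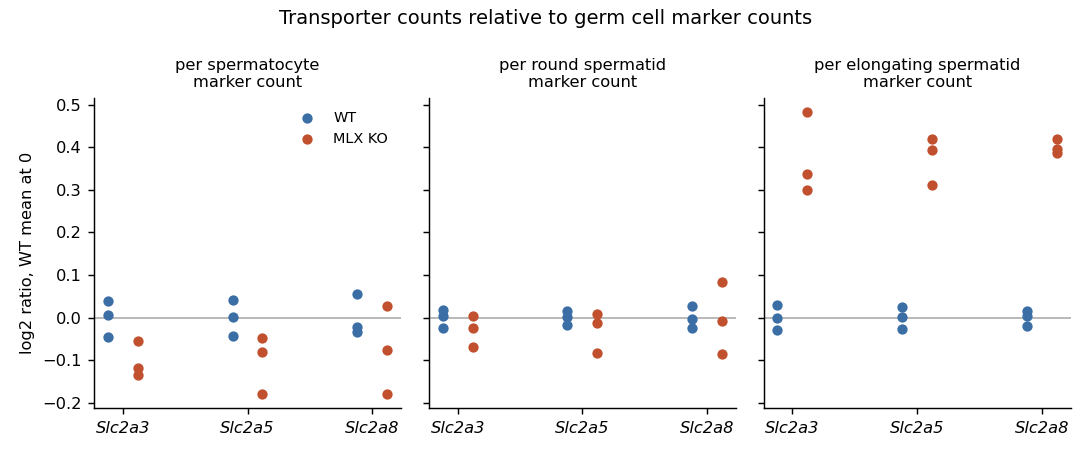
Log2 ratio of *Slc2a3*, *Slc2a5* and *Slc2a8* counts to summed marker counts of the same library (vertical axes, mean of the WT libraries at 0), with 3 WT libraries in blue and 3 MLX KO libraries in orange. MLX KO values overlap WT per round spermatid marker and lie between 0.3 and 0.5 above it per elongating spermatid marker.

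Markers of somatic cells were higher in MLX KO testes, as *Slc2a12* was. All 8 Sertoli, 6 Leydig and 7 macrophage markers rose, with median LFCs of 0.79, 1.16 and 1.28, as did 3 of 5 endothelial and 3 of 4 peritubular myoid markers (medians 0.62 and 0.44). The summed Sertoli level went from a range of 917 to 962 CPM in WT to one of 1416 to 1726 CPM in MLX KO libraries, and the endothelial sum from 14.5 to 18.4 CPM to 28.9 to 34.0 CPM. Per Sertoli marker count, *Slc2a12* was lower in MLX KO testes by 0.24 and *Slc2a1* by 0.47 on the log2 scale, each without overlap (exact permutation tests, two-sided p = 0.1 each). *Clu* held 78.4% of the Sertoli list's summed CPM, so these ratios rest largely on 1 marker. The LFCs of the 8 Sertoli markers ranged from 0.51 to 1.27, and that of *Slc2a12*, 0.52, lay near the low end of this range. It also lay within the ranges of the macrophage (0.42 to 1.60), endothelial (0.29 to 2.05), peritubular myoid (0.33 to 0.62) and spermatogonium (-0.26 to 0.81) markers. It lay below that of the Leydig markers (0.58 to 1.93). These ranges do not single out a cell type. Per spermatogonium marker count, *Slc2a12* was higher by 0.33 (exact permutation test, two-sided p = 0.1). Per Leydig marker count, the log2 change was -0.84 for *Slc2a12* and -1.07 for *Slc2a1*. For *Slc2a1* it was -0.66 per endothelial and 0.27 per erythroid marker count. None of these overlapped (exact permutation tests, two-sided p = 0.1 each). The size and sign of such a ratio thus depend on the list used. Of 7 spermatogonium markers, 2 rose and 1 fell, with 1 higher in DESeq2 and 0 lower with library size alone. The part of these cells in the *Slc2a12* difference was not tested.

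Fat and muscle, where *Slc2a4* is known to be high, left few reads. Of the adipocyte list, 5 of 6 markers were tested, with *Plin1* higher and *Adipoq* lower past the threshold, and its sum ranged from 8.52 to 12.7 CPM in WT and from 8.20 to 10.7 CPM in MLX KO testes. The skeletal muscle sum was at most 3.67 CPM, with 1 of 3 tested markers lower. The erythroid list had only *Alas2* tested, which did not pass (LFC 0.03, edgeR adjusted p = 0.816).

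Other genes of sugar transport and its control were described from lists. Over all genes tested, 24.8% rose and 20.6% fell past the threshold, which is the background for each list count below. Hexose phosphorylation traps sugar inside the cell, and of its 7 tested genes 4 rose and 1 fell, with a median LFC of 0.51 against 0.03 over all genes tested. The gene that fell was *Hk1*, the main hexokinase of the testis, from 2463 ± 80.0 to 1750 ± 117 CPM (SD, n = 3 each; LFC -0.49, edgeR adjusted p = 1.05e-04, with all 3 pairs lower). *Hk1* held 95.5% of the list's summed CPM. *Khk*, ketohexokinase, which phosphorylates fructose, rose from 2.36 ± 0.216 to 5.35 ± 1.04 CPM (SD, n = 3 each; LFC 1.18, edgeR adjusted p = 5.54e-04). *Hk2*, an inducible hexokinase, rose as well (LFC 0.57, edgeR adjusted p = 7.22e-04).

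Of 20 genes of transporter trafficking and control, 9 rose and 4 fell, with a median LFC of 0.17. Over all genes tested, 24.8% rose and 20.6% fell, so the share that fell was near the background. With library size alone 14 rose, where 36.5% of all genes tested did. With the pair as a block, 3 fell. *Txnip*, whose product binds and removes glucose transporters from the surface, fell from 68.5 ± 15.2 to 29.5 ± 1.84 CPM (SD, n = 3 each; LFC -1.21, SE 0.14, edgeR adjusted p = 6.70e-05, with all 3 pairs lower). *Aspscr1*, which encodes the GLUT4 tether TUG, fell (LFC -0.30, edgeR adjusted p = 8.10e-04), and *Akt1*, a kinase of insulin signaling, rose (LFC 0.40, edgeR adjusted p = 9.01e-04).

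Among 6 tested genes of other sugar transporters, 3 rose and 0 fell, against 24.8% and 20.6% of all genes tested. The 3 that rose were *Slc45a4* (LFC 0.37, edgeR adjusted p = 3.24e-04), *Slc45a3* (LFC 0.98, edgeR adjusted p = 0.00264) and *Slc50a1*, the SWEET1 sugar transporter (LFC 0.81, edgeR adjusted p = 0.00587). A further 3 genes of the *Slc2a* family have rows in the table but too few counts for testing. The counts of *Slc2a2* were 3, 5 and 9 in WT against 13, 7 and 14 in MLX KO libraries, *Slc2a6* had 2, 3 and 5 against 8, 8 and 4, and *Slc2a7* had 1 count in all.

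The lists for polyols and fructose, for myo-inositol, and for urate and ascorbate were small. Over all genes tested, 24.8% rose and 20.6% fell past the threshold. Sorbitol dehydrogenase (*Sord*), which makes fructose from sorbitol, fell from 2601 ± 310 to 1999 ± 175 CPM (SD, n = 3 each; LFC -0.38, edgeR adjusted p = 0.0050, with all 3 pairs lower). *Akr1b3*, the enzyme before it in that pathway, had only 16, 8 and 12 counts in WT against 15, 8 and 19 in MLX KO libraries. It did not pass (LFC 0.12, SE 0.37, edgeR adjusted p = 0.812), and so few counts leave a change of either sign possible. Of 4 tested genes of myo-inositol handling, *Impa1* (LFC 0.21, edgeR adjusted p = 0.0165) and the inositol transporter gene *Slc5a3* (LFC 0.38, edgeR adjusted p = 0.0293) rose and *Isyna1* did not pass (LFC -0.07, edgeR adjusted p = 0.385). Only 1 of the myo-inositol genes was past the threshold and higher in DESeq2. Of 5 urate and ascorbate genes, 2 rose and 2 fell, with 1 lower by library size alone. *Xdh*, which makes urate, rose (LFC 1.01, edgeR adjusted p = 3.24e-04), as did the ascorbate transporter gene *Slc23a2* (LFC 0.44, edgeR adjusted p = 0.011), and the urate transporter gene *Slc22a12* fell (LFC -1.26, edgeR adjusted p = 7.07e-04).

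**Figure D5:**
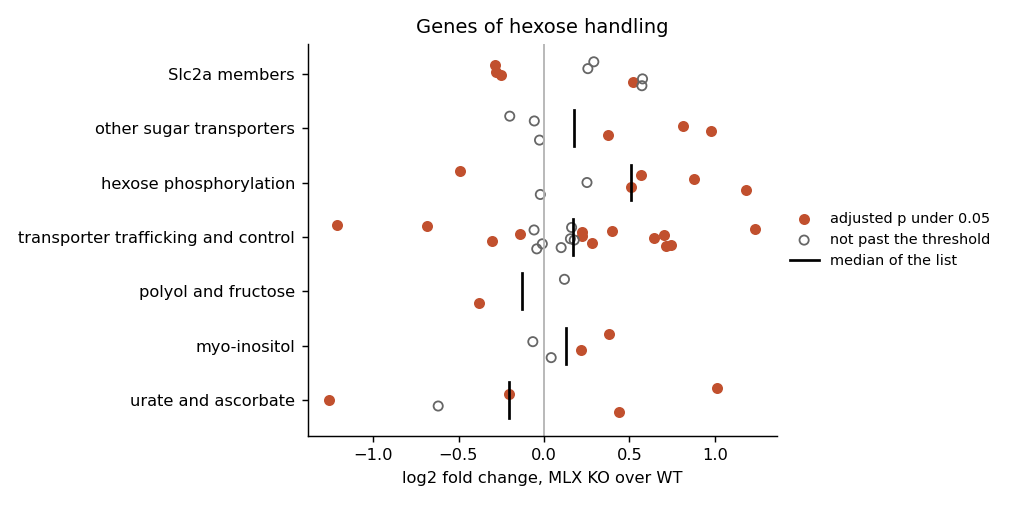
LFC of MLX KO over WT (horizontal axis) for the 8 tested members and the tested genes of 6 lists, filled where the adjusted p was under 0.05, with vertical bars at list medians. The members split around 0, with the 3 abundant ones on the left, and *Txnip* at -1.21 and *Slc22a12* at -1.26 lie furthest left.

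Genes with the most similar pattern were sought by Pearson's r of log2 CPM over the 6 libraries, which is given as a description because the libraries form 2 genotype groups. For *Slc2a3*, the member that fell with the smallest adjusted p, they were *Gpr19* (r = 0.9998), *Pcbp3* (r = 0.9992) and *4930544D05Rik* (r = 0.9988), and 225 genes had an r over 0.99. For *Slc2a12* they were *Prkacb*, *Zc3h7b* and *Palm*, each with an r of at least 0.9991, and 183 genes had an r over 0.99.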

How the data were processed

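RNA of 3 WT and 3 MLX KO testes was sequenced in 6 libraries. The authors aligned reads to mm10 with TopHat, and the deposited values are raw counts per gene symbol; the counting tool and annotation are not given in the sources used here. Columns of the authors' own comparison (mean, fold change, SE, statistic and p-values) were not used. Of 17933 rows, 2 repeats were dropped. edgeR 4.0.16 in R 4.3.3 was used with its filter at a minimum count of 10, TMM normalization (factors 0.943 to 1.07), a quasi-likelihood model of genotype alone, and p-values adjusted by Benjamini and Hochberg over 14640 genes. CPM uses TMM-adjusted library sizes. DESeq2 1.42.0 and 15 other settings were alternatives.

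Exon lengths and positions are from GENCODE M21 and promoters from RefSeq (GRCm38.p6), where 7 of 9 members had a window. Members, lists and tests were chosen with earlier results of these data known. Named genes are all members, the 3 genes with the smallest p in each list (fewer where fewer were tested), and the 3 most similar genes for the leading member in each direction. The untested family genes *Slc2a2*, *Slc2a6* and *Slc2a7* are given by counts only, and *Mlx* as the targeted gene. *Tbpl1*, *Clu*, *Plin1*, *Adipoq* and *Alas2* were named after their values were seen. Sample numbers mark littermate pairs, by the titles and the study's text. Deviations from group means correlated at 0.145, 0.0363 and 0.121 between same-numbered libraries. Between differently numbered libraries they ranged from -0.123 to 0.033, so the value of WT2 with KO2 did not stand out. Same-genotype libraries differed by more than counting error, with a chi-square of at least 2.66 per degree of freedom. On simulated data edgeR recovered 97 of 100 genes changed 2-fold among 14684 genes tested and called 10 unchanged genes. The simulation changed 200 genes, all by at least 2-fold, at a fixed dispersion. It does not measure the recovery of smaller changes such as those of the members.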

Additional observations from a re-analysis of the deposited data

How the results depend on the processing

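*Slc2a3* and *Slc2a5* stayed lower and past the threshold in 16 of 16 alternatives (LFCs from -0.33 to -0.15 and from -0.33 to -0.14), *Slc2a8* in 14 and *Slc2a12* in 15 of 16. The number of lower members was 2 with library size alone and 3 in the other alternatives that use all libraries, and between 2 and 3 when a library was left out, with *Slc2a8* lost without KO3. The number of higher members was 2 (*Slc2a12* and *Slc2a1*) with library size alone, upper-quartile factors, a threshold of 0.05 on the unadjusted p, a filter of 1 CPM in 3 libraries, and edgeR with littermates as a block, and 0 with the block in DESeq2. It was between 1 and 2 when a library was left out, with 2 without KO1. Over all genes tested, the pair as a block in DESeq2 gave 4579 genes against 6649, and library size alone gave 5343 higher and 1268 lower genes against 3634 and 3015. The block changed no other call among the members. The log2 difference of *Slc2a3* over *Slc2a1* ranged from -0.66 to -0.51 when a library was left out. Ratios to marker counts, and their alternatives, were chosen after seeing the data. Of 114 list counts under other settings, 107 were within 1.5 times the main count; the 7 beyond it are given beside their lists. The block moved 4 list counts by 1 gene each: 5 in place of 6 round spermatid, 6 in place of 5 spermatocyte and 3 in place of 4 trafficking genes were lower, and 4 in place of 3 endothelial markers were higher. No member's LFC changed sign. Members under 30 counts are limited by counting error.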
